A study of Mus musculus with 9 samples.

Results

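Ionotropic glutamate receptors are ligand-gated cation channels assembled from subunits of the AMPA, NMDA and kainate classes. Of 10 subunit genes named for this description, 9 had at least 1 probe set whose annotation gave exactly that gene symbol, against 18193 genes with such a probe set in the whole table. These 9 genes were read by 19 probe sets, of 34945 with 1 gene symbol. Grin1, which encodes the subunit that NMDA receptors require, had no such probe set and was not analysed here. A filter on signal, described with the processing, passed 11 of the 19 probe sets, from 6 genes: Gria1, Gria2, Gria4, Grin2b, Grik2 and Grik5. Gria3, Grin2a and Grin2c had no probe set past it.

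In the cochlea, inner hair cells release glutamate onto the peripheral endings of spiral ganglion neurons, and AMPA receptors there carry the fast excitatory response. NMDA and kainate receptors are found in the same neurons with a smaller known part in transmission. AMPA receptors form from the products of Gria1 to Gria4, and the Gria2 product sets their calcium permeability. All 3 classes are abundant in the central nervous system, including the cochlear nucleus and cerebellum, which lie close to the dissected tissue.

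All samples were cochleae of male C57BL/6 mice, a strain known for early high-frequency hearing loss. CR mice were 15 months old and had received 62 kcal per week, a 26% reduction, from 2 months of age. MC mice were 15-month-old controls on 84 kcal per week, and YC mice were 4-month-old controls on the same ration. Each of the 3 samples per group pooled 4 cochleae from 2 mice, so that the spread between samples is a spread between pools and each p-value below rests on it.

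The arrays differed in their median signal in a way that the groups did not fully account for. The 3 CR arrays and YC array 1 had medians from 526.8 to 626.6 and are called low-median arrays below. The 3 MC arrays and YC arrays 2 and 3 had medians from 842.4 to 1103.9 and are called high-median arrays. CR and MC therefore shared no array class, and among YC samples 1 low-median array stood against 2 high-median ones. A fit with a term for array class separates CR from MC through those YC arrays alone, and values from it are given as those under the array-class term. Of 16 cochlear tissue genes, a list added to check the tissue label, 13 passed the filter, among them Coch, the cochlin of spiral ligament fibrocytes, with signals of at least 15823 on all arrays. Of those 13 genes, 10 had higher estimates in CR than in MC (median log2 change 0.98, and 0.33 under the array-class term) and 0 were called. The summed normalized signal of all 16 was 128977 to 190204 in CR, 77598 to 93114 in MC and 61531 to 104995 in YC. CR lay above all other arrays, and the part of this sum in the subunit values was not tested.

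The first question concerned calorie restriction at 15 months, CR against MC. Of the 11 subunit probe sets past the filter, 0 were called at an adjusted p under 0.05 by limma. In that fit 25 of 27022 probe sets were called (0.0925%), and the smallest adjusted p of a subunit was 0.145. At an unadjusted p under 0.05 in the fit without a filter stood 7 of 19 subunit probe sets, 36.8%, against 16.6% of the 45037 probe sets of the table. In whole cochleae, fewer cells of a type and less RNA per cell cannot be told apart. Of 10 AMPA probe sets, which read 4 genes, 8 had higher estimates in CR and the median log2 change was 1.15. By the brightest probe set of each gene, Gria1, Gria3 and Gria4 had higher estimates in CR and Gria2 a lower one. The summed normalized signal of those brightest probe sets was 6413 to 9065 in CR and 7275 to 10173 in MC. These ranges overlapped, and the middle sum was lower in CR (6521 against 8406). Of 6 NMDA probe sets, 5 had lower estimates and the median log2 change was -0.75, and the 3 kainate probe sets had a median of 0.12. Under the array-class term the medians were 0.94 for AMPA, -0.14 for NMDA and -0.27 for kainate probe sets, and all 3 kainate estimates had turned sign. Over every probe set of the table the median was 0.02 without that term. Over the 13702 genes past the filter it was 0.07 without the term and -0.09 under it. These values describe the classes and do not show that they differ from each other.

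**Figure D1:**
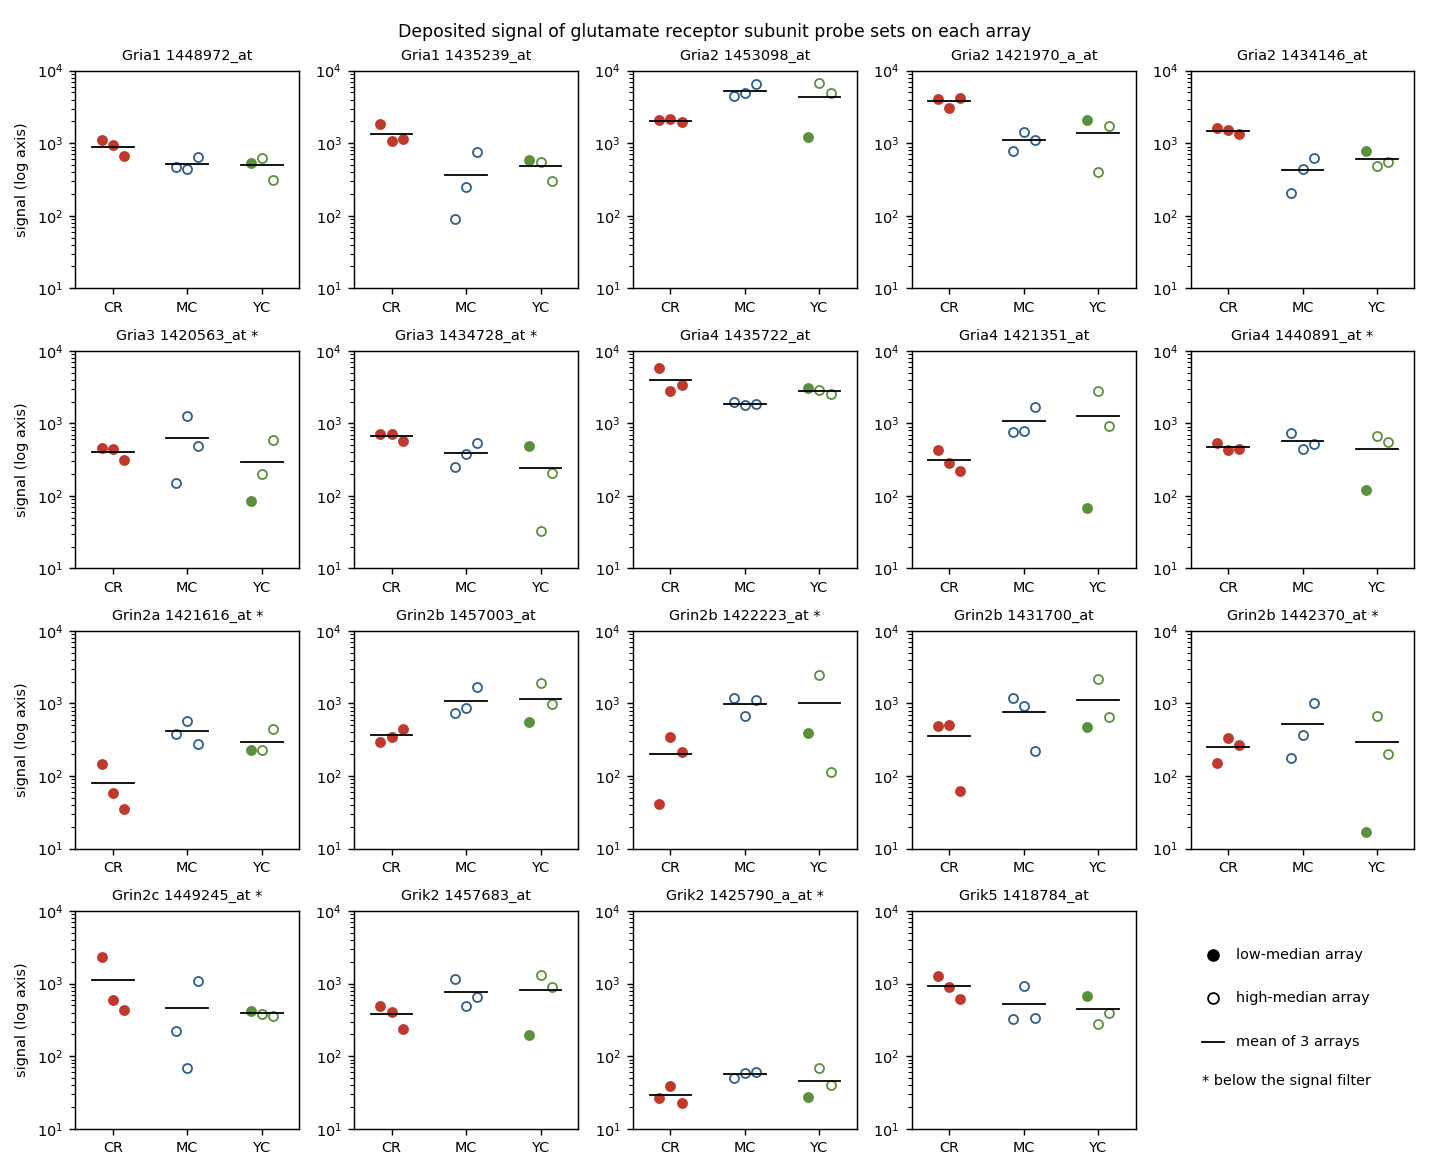
Deposited signal (log axis) of all 19 subunit probe sets on each of the 9 arrays, in CR, MC and YC samples, with lines at the mean of 3 arrays. Filled points are low-median arrays, open points are high-median arrays, and a star marks a probe set below the signal filter. Gria2 1421970_a_at is 3096 or more on all CR arrays and 2077 or less on all others, and Gria2 1453098_at shows the opposite order between CR and MC.

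Gria1 encodes the AMPA subunit GluA1, best known from forebrain synapses. By its brightest probe set, 1448972_at, signals were 1102, 931 and 663 in CR against 468, 436 and 645 in MC and 531, 631 and 316 in YC. The CR arrays lay above all 3 MC arrays. The log2 change CR minus MC was 1.33 ± 0.50 (SE, n = 3 per group, limma adjusted p = 0.215).

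The other Gria1 probe set, 1435239_at, had signals of 1826, 1062 and 1160 in CR, against 91.5, 245 and 752 in MC and 587, 559 and 304 in YC. Both probe sets of Gria1 placed CR above every MC and YC sample. For 1435239_at the log2 change CR minus MC was 2.72 ± 0.72 (SE, n = 3 per group, limma adjusted p = 0.156). Under the array-class term the changes were 1.37 ± 1.22 for 1435239_at and 0.20 ± 0.78 for 1448972_at (limma adjusted p = 1 for both).

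Gria2 encodes GluA2, the subunit that makes AMPA receptors nearly impermeable to calcium once its transcript is edited. Its 3 probe sets disagreed. On 1421970_a_at the signals were 4116, 3096 and 4179 in CR, against 768, 1429 and 1108 in MC and 2077, 399 and 1724 in YC. The CR samples averaged 3797 ± 608 and the MC samples 1102 ± 330 (SD, n = 3 each).

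On 1434146_at the Gria2 signals were 1616, 1505 and 1360 in CR, 208, 448 and 617 in MC, and 790, 491 and 558 in YC. The CR arrays stood above all MC and YC arrays on both of these probe sets. The log2 changes CR minus MC were 1.95 ± 0.65 for 1421970_a_at and 2.31 ± 0.54 for 1434146_at (limma adjusted p = 0.192 and 0.145). Under the array-class term they were 0.34 ± 1.05 and 0.98 ± 0.83.

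On the brightest Gria2 probe set, 1453098_at, the order was turned round, with 2056, 2145 and 1950 in CR against 4494, 4906 and 6531 in MC. The YC samples had 1208 on the low-median array against 6783 and 4959 on the high-median arrays. All 4 low-median arrays thus lay below all 5 high-median arrays, whatever the group. The log2 change CR minus MC was -1.45 ± 0.54 (limma adjusted p = 0.216), and 0.84 ± 0.52 under the array-class term.

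Gria3 encodes GluA3, an AMPA subunit of spiral ganglion neurons. Neither of its probe sets passed the signal filter. Signals of 1434728_at were 704, 723 and 571 in CR, against 249, 380 and 541 in MC and 487, 33.2 and 209 in YC. The log2 change CR minus MC was 1.42 ± 0.94 in the fit without a filter, and -1.75 ± 1.31 under the array-class term. For 1420563_at the MC signals ran from 149 to 1245 and enclosed the CR range of 316 to 454, and the log2 change was 0.42 ± 0.85.

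Gria4 encodes GluA4, the AMPA subunit with fast kinetics found at auditory synapses. Its brightest probe set, 1435722_at, had signals of 5735, 2765 and 3368 in CR. MC samples had 1977, 1798 and 1827, and YC samples had 3052, 2877 and 2539. MC samples lay below every CR and every YC sample, and the low-median YC array, at 3052, stood close to the 2 high-median YC arrays.

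For Gria4 1435722_at the log2 change CR minus MC was 0.97 ± 0.27 (limma adjusted p = 0.171), a 1.96-fold difference with a 95% interval of 0.37 to 1.57 on the log2 scale. Under the array-class term it was 0.89 ± 0.49, the smallest shift under that term among the AMPA probe sets. With each array left out in turn it ran from 0.72 to 1.16. With arrays centred on their median it was 1.63, a scaling that moved the median over all 27022 probe sets to 0.58, against 0.08 after quantile normalization. The other Gria4 probe sets gave -1.16 ± 0.94 for 1421351_at and 0.44 ± 0.59 for 1440891_at, which is below the filter. The deposited CR signals of 1421351_at lay below those of MC, an order that normalization did not keep. They were 425, 282 and 218 in CR, against 769, 786 and 1684 in MC and 67.9, 2781 and 920 in YC. As on Gria2 1453098_at, the low-median YC array was the lowest of its group, and under the array-class term the log2 change was 2.39 ± 1.11.

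The promoter windows of Gria2 and Gria4 are shown because these genes had the AMPA probe sets with the smallest unadjusted p in the CR against MC and the MC against YC comparison. The sequences are from RefSeq (GRCm38.p6), run 5′ to 3′ on the gene's minus strand and cover 250 bases before to 50 bases after the annotated start. Both strands were searched for 3 motifs: the GC box GGGCGG, the cAMP response element TGACGTCA and the NRF1 consensus. Capitals mark a match, and these matches overlapped no other motif. The Gria2 window, chr3:80802786-80803085, held 1 NRF1 consensus match and the Gria4 window, chr9:4796185-4796484, held none of the 3 motifs.
Gria2: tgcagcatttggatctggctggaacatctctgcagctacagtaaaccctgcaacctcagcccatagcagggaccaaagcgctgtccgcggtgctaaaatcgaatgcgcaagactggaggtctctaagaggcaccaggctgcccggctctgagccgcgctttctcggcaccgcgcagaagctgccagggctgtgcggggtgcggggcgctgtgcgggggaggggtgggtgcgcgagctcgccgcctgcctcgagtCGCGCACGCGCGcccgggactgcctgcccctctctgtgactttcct
Gria4: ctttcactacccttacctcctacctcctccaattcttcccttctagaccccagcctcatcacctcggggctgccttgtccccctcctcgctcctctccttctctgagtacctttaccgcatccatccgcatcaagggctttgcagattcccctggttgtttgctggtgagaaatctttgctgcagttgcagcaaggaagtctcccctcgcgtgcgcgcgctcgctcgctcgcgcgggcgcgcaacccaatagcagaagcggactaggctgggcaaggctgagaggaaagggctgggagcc

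Of all 32851 promoter windows of the same length, 1.27% held the NRF1 consensus, 35.7% the GC box and 1.79% the cAMP response element. Promoter entries were matched for 5 of the 9 measured genes, by symbol. Grin2c held 3 GC boxes, of which 2 overlap by a base, Grik5 held 2, and Grik2 held none of the motifs. A match describes letters in the window and says nothing of binding.

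Among NMDA subunits, Grin2b encodes GluN2B, the subunit abundant early in development. Its brightest probe set, 1457003_at, had signals of 296, 342 and 452 in CR, against 732, 868 and 1673 in MC and 551, 1891 and 978 in YC. CR samples lay below all MC and YC samples. The log2 change CR minus MC was -0.86 ± 0.47 (limma adjusted p = 0.341), and -0.27 ± 0.83 under the array-class term. The other 3 Grin2b probe sets had log2 changes CR minus MC from -1.92 to -0.09, with SEs from 0.89 to 0.99. The estimate of 1442370_at, below the filter, turned to 2.51 ± 1.35 under the array-class term, against -0.09 ± 0.89 without it. On 1422223_at, below the filter, signals were 41.4, 348 and 212 in CR, against 1193, 668 and 1127 in MC and 394, 2508 and 113 in YC. This was the second Grin2b probe set with CR below MC and no overlap.

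Grin2a encodes GluN2A, the predominant mature partner of GluN1 in much of the brain. Its single probe set was below the filter, with signals of 146, 59.1 and 35.2 in CR, against 382, 581 and 272 in MC and 226, 225 and 441 in YC. The deposited CR signals lay below those of both other groups. After quantile normalization CR array 1 came above MC array 3, and the log2 change CR minus MC was -1.57 ± 0.74 (adjusted p = 0.312 by limma without a filter), and -2.07 ± 1.33 under the array-class term.

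Grin2c encodes GluN2C, a subunit characteristic of cerebellar granule cells. Its single probe set, also below the filter, had signals of 2344, 601 and 438 in CR, against 223, 69.6 and 1103 in MC and 424, 383 and 358 in YC. The CR and MC ranges overlapped, and CR array 1 stood apart from the other CR arrays. The log2 change CR minus MC was 2.08 ± 0.90 (adjusted p = 0.28 by limma without a filter), and 0.99 ± 1.62 under the array-class term.

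Grik5 encodes GluK5, a kainate subunit that needs a GluK1 to GluK3 partner to form a channel. Its signals were 1285, 897 and 610 in CR, against 322, 935 and 339 in MC and 671, 280 and 390 in YC. MC array 2 lay within the CR range. The log2 change CR minus MC was 1.38 ± 0.68 (limma adjusted p = 0.297), and -0.40 ± 1.04 under the array-class term.

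Grik2 encodes GluK2, one of those partners. On 1457683_at its signals were 485, 403 and 240 in CR, against 1159, 497 and 662 in MC and 198, 1333 and 909 in YC, with a log2 change CR minus MC of -0.34 ± 0.60, and 1.14 ± 0.94 under the array-class term. On 1425790_a_at no array exceeded a signal of 68.0, and the change was 0.12 ± 0.46, and -0.27 ± 0.83 under the array-class term. On both Grik2 probe sets the deposited CR signals lay below all MC signals, and after quantile normalization the groups overlapped on both.

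**Figure D2:**
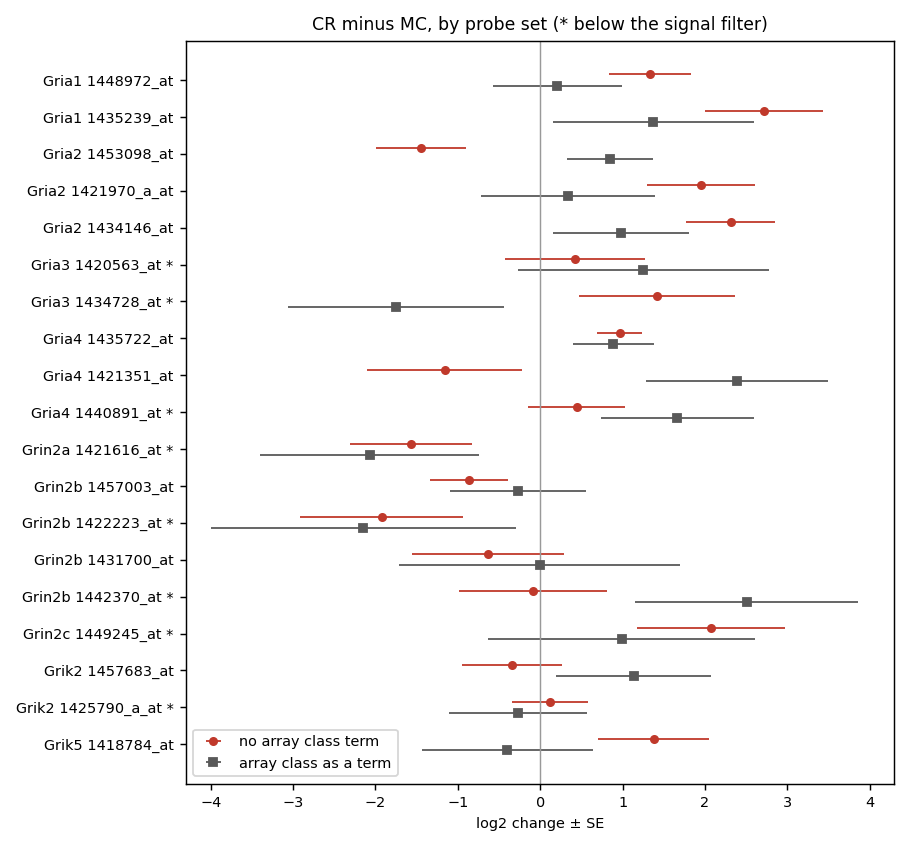
Log2 change CR minus MC with its SE for each of the 19 subunit probe sets, without (circles) and with (squares) an array-class term. Gria4 1435722_at keeps nearly its value (0.97 and 0.89), while Gria2 1453098_at stands at -1.45 without the term and at 0.84 with it.

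After normalization CR lay above MC with no overlap for 6 of 19 subunit probe sets, against 15.9% of all 45037 probe sets, and below MC for 3 of 19, against 15.8%. All 6 above were AMPA probe sets: both of Gria1, 2 of Gria2, 1 of Gria3 and 1 of Gria4. The 4 low-median arrays lay above the 5 high-median arrays with no overlap for 5 subunit probe sets, against 8.66% of all, and below them for 1, against 8.15%. Those 5 were the same AMPA probe sets without the one of Gria4. Under the array-class term, 9 of 10 AMPA probe sets had positive estimates for CR minus MC. For 7 of 19 subunit probe sets the sign was opposite to that without the term. Of the 19, 0 were called or had an unadjusted p under 0.05 in limma, where 0 of all 45037 were called. The shares of all probe sets that turned sign or had such a p are not given here. CR and array class cannot be told apart beyond what the 3 YC arrays allow.

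The calls depended on which YC arrays shared the estimate of spread. With the CR and MC arrays alone in the fit, 4 of the 11 subunit probe sets past the filter were called. These were Gria1 1435239_at and all 3 of Gria2 (limma adjusted p = 0.0171 to 0.05, the upper one rounded), where 1846 of 27022 probe sets were called (6.83%). Without YC array 2, Gria2 1421970_a_at and 1434146_at were called (limma adjusted p = 0.0249 and 0.0373), where 987 were called in all (3.65%). In the fit of CR and MC alone, Gria2 1453098_at was called lower in CR (-1.45) and Gria2 1421970_a_at and 1434146_at higher (1.95 and 2.31).

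The second question concerned age in control mice, MC against YC. No subunit probe set was called by limma, as was none of the 27022 tested (0%), and 1 of 19 had an unadjusted p under 0.05 in the fit without a filter, against 4.34% of the table. That was Gria4 1435722_at, whose signals are given above, with a log2 change MC minus YC of -0.65 ± 0.27 (n = 3 per group, unadjusted p = 0.0369, limma adjusted p = 1). It was also the 1 subunit probe set on which MC lay below YC with no overlap, against 3.55% of all probe sets. MC lay above YC with no overlap for 0 of the 19, against 3.6% of all. The other Gria4 probe sets had MC minus YC changes of the opposite sign. These were 0.37 ± 0.94 for 1421351_at and 0.32 ± 0.59 for 1440891_at, which is below the filter.

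Within the high-median arrays, the 3 MC samples against YC arrays 2 and 3, the Gria4 1435722_at change was -0.62. For Gria1 the changes MC minus YC were -0.14 ± 0.50 by 1448972_at and -1.03 ± 0.72 by 1435239_at. For Gria2 they were 0.46 ± 0.54, -0.17 ± 0.65 and -0.80 ± 0.54 by 1453098_at, 1421970_a_at and 1434146_at. The sign differed between probe sets of 1 gene in 4 of the 6 genes with several: Gria2, Gria4, Grin2b and Grik2. Among the remaining genes Grin2c had -0.72 ± 0.90, Grin2a 0.22 ± 0.74 and Grik5 -0.01 ± 0.68, none of them larger than its SE. The brightest probe sets of Grin2b and Grik2 had -0.23 ± 0.47 and -0.09 ± 0.60, also within their SEs. The other 3 Grin2b probe sets had changes from -0.78 to 1.09, the highest being 1442370_at with an SE of 0.89. The Gria3 probe sets had 0.78 ± 0.85 for 1420563_at and 0.92 ± 0.94 for 1434728_at. Gria3 1434728_at had 1.97 ± 0.81 under the array-class term (unadjusted p = 0.0344, limma adjusted p = 0.823). It was the 1 subunit probe set with an unadjusted p under 0.05 for MC minus YC in that fit.

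CR samples were also set against YC samples, a comparison that shares its arrays with both others. No subunit probe set was called, as was none of the 27022 (0%), and 5 of 19 had an unadjusted p under 0.05 in the limma fit without a filter, against 9.95% of the table. Grin2b 1457003_at, the probe set below YC with no overlap, had -1.09 ± 0.47 and an unadjusted p of 0.0424 in the limma fit with the filter. CR lay above YC with no overlap for 5 of the 19 probe sets, against 9.32% of all, and below YC for 1, against 8.73%. Those 5 were both of Gria1, Gria2 1421970_a_at and 1434146_at, and Gria4 1440891_at. The log2 changes CR minus YC were 1.20 ± 0.50 and 1.69 ± 0.72 for the Gria1 probe sets 1448972_at and 1435239_at. For Gria2 they were 1.78 ± 0.65 by 1421970_a_at, 1.51 ± 0.54 by 1434146_at and -0.98 ± 0.54 by 1453098_at. Gria3 1434728_at, below the filter, had 2.33 ± 0.94. Gria4 1421351_at had -0.79 ± 0.94 and Gria4 1440891_at, below the filter, had 0.77 ± 0.59.

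Within the low-median arrays, the 3 CR samples against YC array 1 alone, the 2 Gria1 changes were 0.44 and 0.80. The Gria2 changes there were 0.71, 0.62 and 0.55 by 1421970_a_at, 1434146_at and 1453098_at, all of 1 sign. Gria4 1435722_at had 0.27 in this subset and 0.32 ± 0.27 over all arrays, but 0.07 without CR array 1. With arrays centred on their median it was 0.82, where the median over all 27022 probe sets was 0.39. Grik5 had 0.18 in the subset and 1.37 ± 0.68 over all arrays, and Grin2b 1457003_at had -0.69 in the subset. Grin2b 1442370_at had 2.73 ± 1.06 under the array-class term (unadjusted p = 0.0259, limma adjusted p = 1), against 1.0 ± 0.89 without it. Without YC array 1, Gria2 1453098_at was called lower in CR than in YC (log2 change -1.75, limma adjusted p = 0.044), where 363 of 27022 probe sets were called (1.34%).

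**Figure D3:**
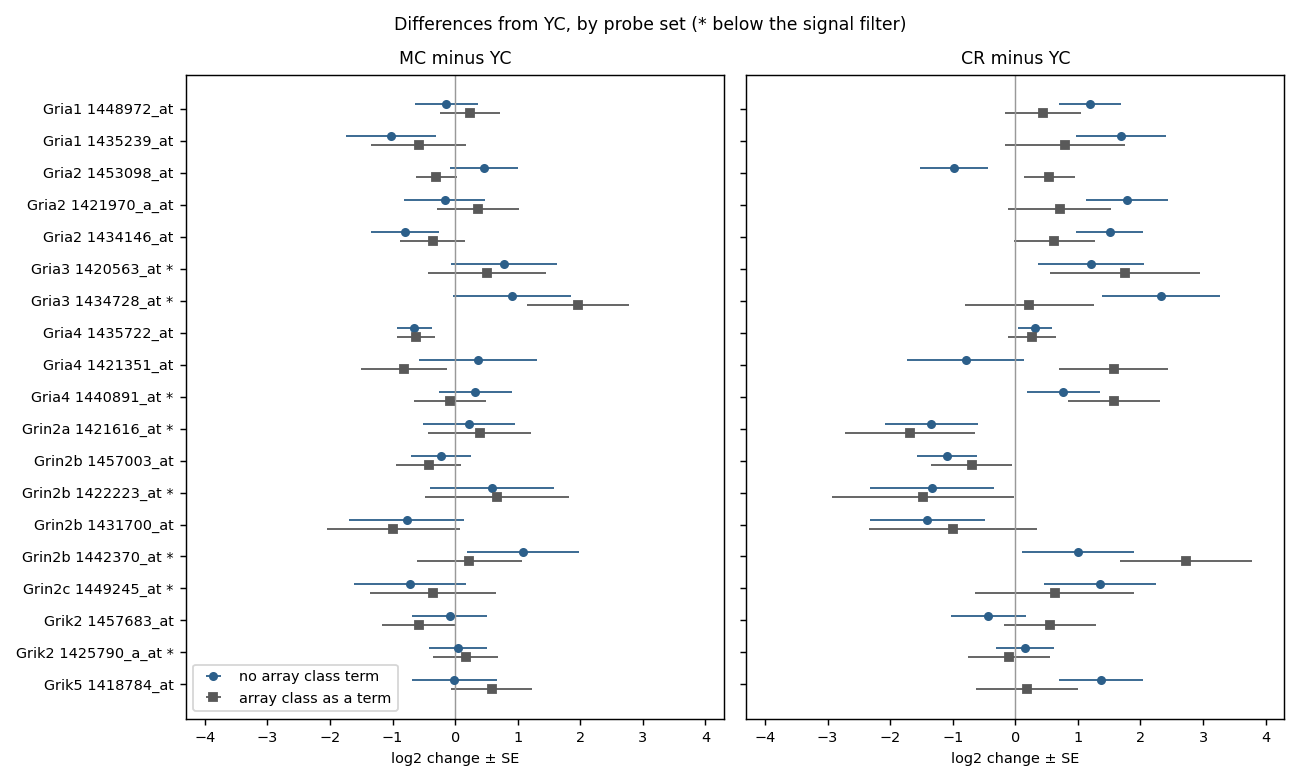
Log2 change with its SE for each subunit probe set, MC minus YC on the left and CR minus YC on the right, without (circles) and with (squares) an array-class term. Gria4 1435722_at has MC minus YC values of -0.65 and -0.62, and Gria2 1453098_at has CR minus YC values of -0.98 and 0.55.

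The genes with the pattern over 9 arrays most like that of Gria4 1435722_at, by the root mean square difference of mean-centred log2 values among 13701 genes, were Zfp958 (0.18), Dennd11 (0.19) and Cadm3 (0.20). The root mean square of Gria4 itself about its mean was 0.46. For Grin2c, the NMDA gene with the smallest p for CR minus MC, the closest were Fgf14 (0.55), Psrc1 (0.66) and P4htm (0.68), against 1.35 for Grin2c itself. All these arrays share the class difference described above.

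Other genes of the glutamate synapse were described from lists, each gene by its brightest probe set past the filter. None of them was called in CR against MC, and a value under the array-class term follows where it turned sign or moved by over 1.5 times. The other ionotropic subunits had 2 of 6 higher estimates (median -0.22, and 0.05 under the array-class term), with Grin2d at -0.90 ± 0.45 (0.52 under that term) and Grik4 at -0.41 ± 0.39. AMPA and kainate auxiliary proteins had 2 of 9 higher (median -0.60, and 0.64 under the array-class term). Among these Cacng2, which encodes the AMPA receptor trafficking protein stargazin, had 2.44 ± 0.57 and Cacng7, a related gene, had -1.72 ± 0.63, which turned to 0.70 under the array-class term.

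Postsynaptic scaffold and trafficking genes had 12 of 20 higher estimates (median 0.21). Nsf, an ATPase that binds GluA2, had 0.95 ± 0.30 and Lin7a, a PDZ scaffold, had 2.62 ± 0.89 (0.17 and 0.53 under the array-class term). Of 3 metabotropic receptor genes, 2 were higher (median 0.03, and 1.03 under the array-class term), with Grm7 at 1.82 ± 0.71 and Grm8 at -0.17 ± 0.59 (0.15 under that term). Calcium signalling genes had 7 of 12 higher (median 0.18), with Camk4, a calmodulin-dependent kinase, at 3.21 ± 0.78 and Adcy1, a calcium-stimulated adenylyl cyclase, at 1.11 ± 0.34 (0.50 under the array-class term).

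Genes of glutamate loading, uptake and synthesis had 10 of 11 higher estimates in CR (median 0.50, and 0.48 under the array-class term). The glial uptake transporter genes Slc1a3 and Slc1a2 had 1.28 ± 0.23 (limma adjusted p = 0.0841) and 4.37 ± 1.12 (adjusted p = 0.15). Slc1a2 had 1.39 under the array-class term. Over all 13702 genes past the filter, 7545 were higher and the median was 0.07, and -0.09 under the array-class term. In MC against YC the medians of these 6 lists lay between -0.27 and 0.23, and none of their genes was called.

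**Figure D4:**
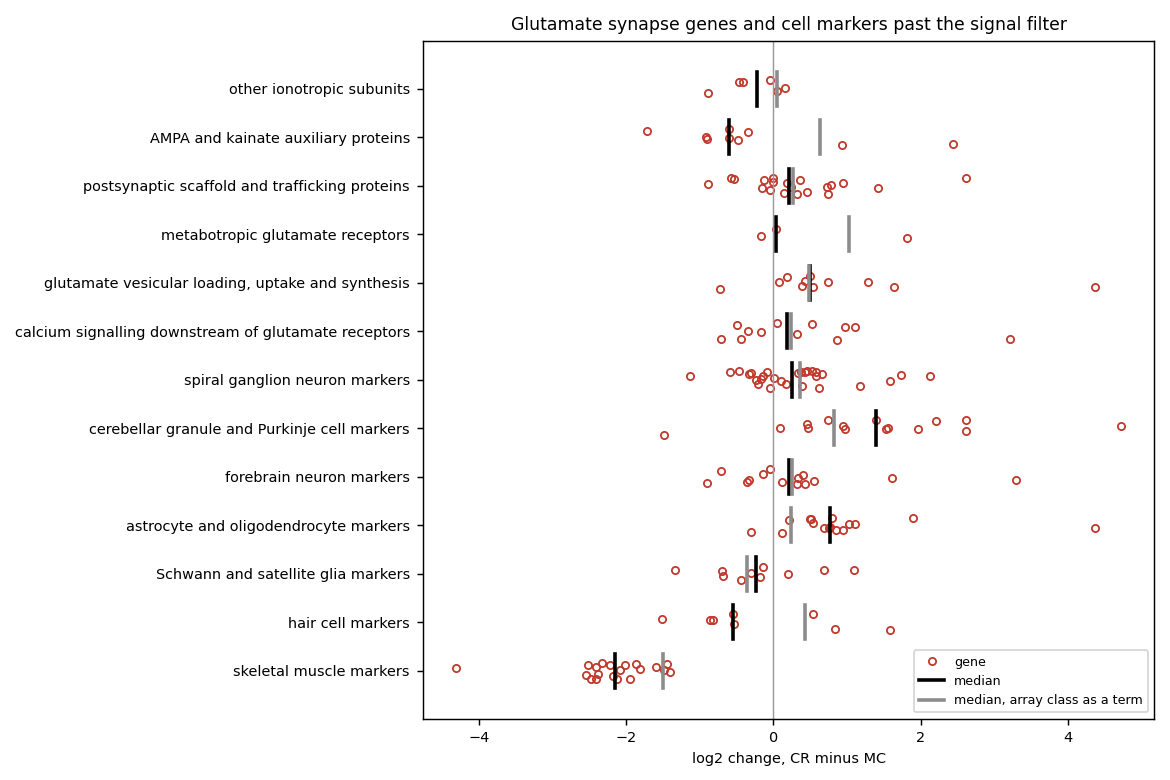
Log2 change CR minus MC of each gene past the filter (circles) in the glutamate synapse and cell marker lists, with the median (black) and the median under the array-class term (grey). Skeletal muscle markers all lie below 0, and 14 of 15 cerebellar markers lie above 0.

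Markers of other cell types were read in the same samples. Counts and medians cover the genes past the filter. Each summed signal adds normalized values over every gene of the list that had a probe set. Of 15 cerebellar granule and Purkinje cell markers past the filter, of 20 listed, 14 had higher estimates in CR than in MC (median 1.39, and 0.82 under the array-class term) and 0 were called. Car8 of Purkinje cells had 2.61 ± 0.46 (limma adjusted p = 0.0804), and 1.36 under the array-class term. Pvalb, a calcium buffer gene that fast muscle also expresses, had -1.49 ± 0.30, and -0.71 under the array-class term. The summed signal of the 16 genes was 81928 to 146369 in CR, 100292 to 135736 in MC and 82412 to 143218 in YC, so that the groups overlapped and 2 CR arrays lay below all MC arrays. Without Pvalb, left out after its value was seen, the median was 1.46 and the sum of the other 15 genes ran from 55012 to 110718 in CR, from 27986 to 31909 in MC and from 21959 to 44585 in YC. Of these 2 sums, the one without Pvalb placed the CR arrays above all others. The part of these markers in the subunit values was not tested.

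Astrocyte and oligodendrocyte markers had 15 of 16 higher in CR (median 0.76, and 0.24 under the array-class term), with Cldn11, also a strial gene, at 1.89 ± 0.47 (0.10 under that term) and Slc1a2 as above. The summed signal of 19 genes was 207903 to 253825 in CR, 163395 to 191074 in MC and 142403 to 184524 in YC. Forebrain neuron markers had 8 of 14 higher (median 0.22), with Gad1, a GABA synthesis gene, at 3.29 ± 0.93 (1.33 under the array-class term) and Tac1, a neuropeptide gene, at -0.90 ± 0.28. For 18 genes the summed signal was 28578 to 33139 in CR, 26755 to 36061 in MC and 27555 to 31156 in YC.

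Spiral ganglion neuron markers had 17 of 28 higher (median 0.25), with Snap25, a vesicle fusion gene, at 1.73 ± 0.32 (limma adjusted p = 0.0904) and Calb2, a calcium buffer gene, at 1.58 ± 0.34 (1.01 and 0.47 under the array-class term). Over 29 genes the summed signal was 144616 to 188359 in CR, 121299 to 175515 in MC and 114489 to 126249 in YC.

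Hair cell markers had 3 of 8 higher (median -0.55, and 0.43 under the array-class term), with Calb2 as above and Myo7a, a myosin of hair cells, at 0.83 ± 0.40 (0.39 under that term). The summed signal of 16 genes was 21514 to 29350 in CR, 16490 to 17436 in MC and 14778 to 22686 in YC. Schwann and satellite glia markers had 3 of 10 higher (median -0.24), with Gfra3 at -1.33 ± 0.39 and Drp2 at -0.70 ± 0.26. Summed over 12 genes, the signal was 96750 to 132196 in CR, 95979 to 130110 in MC and 97788 to 104857 in YC. Of the skeletal muscle markers, 20 of 20 had lower estimates, and 13 were called lower in CR than in MC. Myh2, a fast myosin heavy chain, had -4.31 ± 0.43 (limma adjusted p = 0.0233). Csrp3, Atp2a1 and Eno3 had -2.54 ± 0.32, -1.95 ± 0.25 and -2.13 ± 0.28 (limma adjusted p = 0.0357 for each). The muscle median was -2.15, and -1.50 under the array-class term, where no probe set of the table was called. No muscle gene was called either without CR array 2, CR array 3, MC array 1 or MC array 3, and 1 was without CR array 1. No muscle gene was called with median centring, with no variance trend or with the replicate block, and 2 were with values as deposited. Their summed signal was 344076 to 484472 in CR, 1207376 to 1709949 in MC and 854166 to 1664030 in YC. The part of these marker differences in the subunit values was not tested.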

How the data were processed

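Pooled cochlear RNA was hybridised, as biotin-labelled cRNA, to 1-colour arrays with 1 array per pool, per the labels' protocols. The software named in the submitters' processing notes is GCOS 1.3. The sources used here give no signal algorithm, target or detection calls. The authors deposited a linear intensity for each probe set. Its mean after trimming 2% at each end ran from 1494 to 1496 over the arrays.

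Here each intensity was taken as log2(signal + 16) and quantile normalized over 9 arrays, since array medians differed up to 2.1-fold. The 27022 of 45037 probe sets not under the 40th percentile in mean log2 were fitted by group in limma 3.58.1 (R 4.3.3) with a variance trend, all arrays together, and called at a Benjamini-Hochberg adjusted p under 0.05. The scale understates changes of dim probe sets. Subunit probe sets under the filter take their values from the unfiltered fit. Precision is limited by how many arrays there are, with 0.43 as the median SE of log2 changes over the 27022 probe sets. In the fits without the array-class term, every subunit probe set but Gria4 1435722_at (0.27) had a larger SE. The largest was 0.99, for Grin2b 1422223_at. The fit was tested on simulated data with independent noise and no array-class difference, so that test cannot speak to the array classes.

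The platform annotation named 1 gene for 34945 probe sets and several for 932, and left 9160 unnamed here. RefSeq gene IDs matched 34741 of the 34945. A gene in a list is read by its brightest probe set. Every subunit is named, and of each list the genes past the threshold (up to 4 by smallest p) or else the 2 with the smallest p in CR against MC. Coch was named for the tissue check, after its values were seen. The members and lists were chosen with earlier results of these data known. Same-numbered arrays of different groups had deviations correlated from -0.29 to 0.27 over 9 pairs, so the numbers were not taken to pair samples. Alternatives were other pseudocounts (1 and 64), no filter or the 60th percentile, median centring, unnormalized values, no trend, fits of the compared groups or of 1 array class alone, an array-class term, a replicate block, and each array left out.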

Additional observations from a re-analysis of the deposited data

How the results depend on the processing

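Subunit calls depended on the arrays in the fit. Of the 11 subunit probe sets past the filter, those called in CR against MC numbered 0 with all arrays and 4 with only the CR and MC arrays. They numbered 0 to 2 when 1 array was left out, the 2 without YC array 2. In CR against YC they numbered 0, and 0 to 1 when 1 array was left out, the 1 without YC array 1. The median log2 change over 9 subunit genes, CR minus MC, was 0.42, against -0.18 with values as deposited, 0.84 under the array-class term, and 0.012 (without MC array 1) to 0.97 (without MC array 2) leaving out 1 array. For CR minus YC it was 0.32, against 0.82 with median centring, and from 0.067 (without CR array 1) to 0.51 (without CR array 2) leaving out 1 array. For MC minus YC it was -0.09, against 0.16 with values as deposited, and from -0.30 to 0.072 leaving out 1 array. The replicate block gave 0 called subunit probe sets in each comparison, but no call remained in the whole table, muscle genes included. The medians stayed at 0.42, -0.09 and 0.32, as they had to, since every group holds each replicate number once.

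Among probe sets past the filter, under the array-class term, CR minus MC turned to 0.84 for Gria2 1453098_at, 2.39 for Gria4 1421351_at, 1.14 for Grik2 1457683_at and -0.40 for Grik5. CR minus YC turned to 0.55, 1.57 and 0.56 for the first 3 of these. MC minus YC turned to 0.24 for Gria1 1448972_at, -0.30 for Gria2 1453098_at, 0.37 for Gria2 1421970_a_at, -0.81 for Gria4 1421351_at and 0.58 for Grik5. In both comparisons with YC, the estimate under the term is by construction the difference within 1 array class. The within-class values are therefore the same numbers and no second check. Below the filter, CR minus MC turned to -1.75 for Gria3 1434728_at, 2.51 for Grin2b 1442370_at and -0.27 for Grik2 1425790_a_at, which had -0.10 for CR minus YC, and MC minus YC turned to -0.08 for Gria4 1440891_at. With values as deposited, MC minus YC turned to 0.10 for Gria1 1448972_at, 0.019 for Grin2b 1457003_at, 0.20 for Grik2 1457683_at and 0.16 for Grik5.

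Leaving out 1 array, MC minus YC ran from -0.48 to 0.24 for Gria1 1448972_at, -0.30 to 1.08 for Gria2 1453098_at, -1.07 to 0.37 for Gria2 1421970_a_at, -0.81 to 1.39 for Gria4 1421351_at, -0.61 to 0.074 for Grin2b 1457003_at, -0.58 to 0.21 for Grik2 1457683_at and -0.55 to 0.58 for Grik5. CR minus YC ran from -1.97 to 0.23 for Gria4 1421351_at, and CR minus MC from -1.39 to 0.33 for Grin2b 1431700_at and -0.64 to 0.014 for Grik2 1457683_at. Of the single probe set values, 324 of 352 under other settings and 274 of 297 leaving out 1 array kept direction and side of the threshold, and 24 and 20 turned direction. The cause of the turns was not tested. Many of these values could not turn. Changes of filter or trend, fits of the compared groups alone and the replicate block leave a log2 change as it is. So does leaving out an array of the group not compared. The counts therefore overstate how stable the directions are. All 25 calls of the table in CR against MC were lost under the array-class term.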
